A study of Mus musculus with 12 samples.

Results

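The genes described here are 10 transcripts that mark the T lymphocyte lineage, namely Cd3e, Cd3g, Cd3d, Lck, Thy1, Cd5, Cd2, Il7r, Lat and Tcf7. They were taken by their symbols from the 21851 genes with usable symbols in each of the 12 libraries, and all 10 were found, each above 0 in every library. The RNA came from cells washed out of the peritoneal cavity of C57BL/6J mice, and the 12 libraries formed 4 groups of 3. These were lactoferrin knockout mice injected intraperitoneally with LPS (lipopolysaccharide, a component of the outer membrane of Gram-negative bacteria), wild-type mice injected with LPS, knockout mice injected with PBS (phosphate-buffered saline, the vehicle) and wild-type mice injected with PBS. The series asks how lactoferrin deficiency changes gene expression in acute inflammation. The sources used here give no LPS dose, no interval before lavage, no age or sex and no construct of the knockout allele. No sort or gate is named, so each level is an average over all cells of the lavage. The titles of the knockout libraries call the mice wild type, while their sample codes, descriptions and characteristics say knockout, and the groups follow the descriptions.

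A level is given in FPKM, a fragment count divided by transcript length and library size, which can be compared between genes because it is scaled by length. A difference is given on the log2(FPKM + 1) scale with its SE, and it understates the change of genes near or below 1 FPKM. It is said to have risen or fallen where limma, fitted to all genes, gave an adjusted p under 0.05. Library totals lay between 343874 and 388129 FPKM, and between 13921 and 14574 genes were above 0. The read totals are not in these values, so the counting error of a single level is unknown. The steps of the lowest values gave an estimated relative depth between 0.916 and 0.997 for 11 libraries, taking wild-type PBS replicate 1 as 1. This is a rough estimate, since only 9.10% to 17.3% of the pairs of low values compared lay within 2% of it. Ltf, the lactoferrin gene, was at 0.0699 to 0.117 FPKM in knockout LPS libraries and 0.176 to 1.33 FPKM in wild-type LPS libraries, and at 0.183 to 0.258 FPKM in knockout PBS libraries and 1.16 to 1.89 FPKM in wild-type PBS libraries, so no knockout library reached the wild-type libraries of its treatment. The library most unlike its group was wild-type PBS replicate 3, whose rank correlations to the other 2 libraries were 0.934 and 0.949, against at least 0.973 within the other groups.

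Mature T cells recognise antigen through a receptor whose signalling part is the CD3 complex. On engagement the kinase Lck phosphorylates the CD3 chains, and the adaptor Lat then assembles the complex that carries the signal on. Several of the 10 genes are shared with other cells of the mouse peritoneum. Cd5 is also carried by B-1a cells, Cd2 by B cells and natural killer cells, Thy1 and Il7r by innate lymphoid cells, Lat by mast cells and natural killer cells, and Tcf7 is also used by innate lymphoid cells. The 3 Cd3 genes are among those of the set most restricted to T cells.

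Cd3e, Cd3g, Cd3d and Thy1 share a chromosome with Ltf. In GRCm38 Cd3e lies on chromosome 9 at chr9:44998740-45009627 on the minus strand, Cd3g at chr9:44969572-44980431 on the minus strand, Cd3d at chr9:44981786-44987339 on the plus strand and Thy1 at chr9:44043384-44048579 on the plus strand. Cd3g and Cd3d are transcribed away from each other from starts 1355 bases apart, and the start of Cd3e is 27.8 kb from that of Cd3d. The start of Ltf is 66.0 Mb from that of Cd3e. Lck lies at chr4:129548344-129573641, Cd5 at chr19:10717116-10739002, Cd2 at chr3:101275899-101287939, Il7r at chr15:9505788-9530176, Lat at chr7:126363824-126369570 and Tcf7 at chr11:52252371-52283014, all on the minus strand. Small RNA, antisense or unclassified transcripts are annotated within Lck, Lat, Cd3e and Tcf7, and since the sources used here do not say whether strand was used, their reads cannot be told apart from those of these genes.

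RefSeq promoter windows of GRCm38.p6, from 250 bases before to 50 after a start that RefSeq gives, were at hand for 8 of the 10 genes. Those of the 3 Cd3 genes, which fell together with LPS in wild-type mice, are shown with that of Il7r, which did not. Capitals mark matches on either strand to the motif letters CAGGAAG (recognised by ETS factors), TGTGGTT (RUNX), CTTTGAT (TCF/LEF), CAGNTG (an E-box) and AGATAA (bound by GATA factors), and no matches overlap each other in the windows shown. The windows are Cd3e at chr9:45009562-45009861, Cd3g at chr9:44980382-44980681 and Il7r at chr15:9529827-9530126, on the minus strand, and Cd3d at chr9:44981536-44981835 on the plus strand. The RefSeq start used for Il7r is 300 bases inside the gene as annotated above, so its whole window lies within the gene and none of it before that annotated start, whereas the starts used for the 3 Cd3 genes are within 16 bases of the annotated ones.
Cd3e: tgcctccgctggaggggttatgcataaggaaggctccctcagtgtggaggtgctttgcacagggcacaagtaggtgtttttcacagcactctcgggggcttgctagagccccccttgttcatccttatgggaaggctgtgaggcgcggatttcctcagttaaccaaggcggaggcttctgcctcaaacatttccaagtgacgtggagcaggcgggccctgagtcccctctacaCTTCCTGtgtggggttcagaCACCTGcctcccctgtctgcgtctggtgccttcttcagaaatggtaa
Cd3g: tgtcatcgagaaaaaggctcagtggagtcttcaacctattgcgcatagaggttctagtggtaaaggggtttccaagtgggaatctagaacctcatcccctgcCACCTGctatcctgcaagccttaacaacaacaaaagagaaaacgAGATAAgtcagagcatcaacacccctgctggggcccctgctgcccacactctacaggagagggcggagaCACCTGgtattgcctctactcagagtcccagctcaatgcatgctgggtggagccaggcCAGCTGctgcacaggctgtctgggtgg
Cd3d: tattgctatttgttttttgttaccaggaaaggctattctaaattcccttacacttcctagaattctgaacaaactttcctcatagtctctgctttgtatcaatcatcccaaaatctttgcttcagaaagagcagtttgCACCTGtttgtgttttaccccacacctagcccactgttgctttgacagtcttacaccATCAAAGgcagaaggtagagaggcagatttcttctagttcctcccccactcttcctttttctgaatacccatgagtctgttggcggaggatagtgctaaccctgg
Il7r: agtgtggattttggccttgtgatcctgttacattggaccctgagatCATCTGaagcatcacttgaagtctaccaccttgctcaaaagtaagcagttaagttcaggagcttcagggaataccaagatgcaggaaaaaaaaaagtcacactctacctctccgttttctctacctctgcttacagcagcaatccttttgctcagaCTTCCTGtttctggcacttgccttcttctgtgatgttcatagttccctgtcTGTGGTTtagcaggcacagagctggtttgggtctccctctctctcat

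The Cd3e window held 1 ETS and 1 E-box match, that of Cd3g 3 E-box matches and 1 GATA match, that of Cd3d 1 E-box and 1 TCF/LEF match, and that of Il7r 1 ETS, 1 RUNX and 1 E-box match. Over the 10 windows that RefSeq lists for the 8 genes, an E-box was found in 10, the ETS letters in 6, the RUNX letters in 2, and the TCF/LEF and GATA letters in 1 each. Among all 32851 windows of the same length the shares were 51.4% for the E-box, 13.3% for ETS, 5.27% for RUNX, 3.73% for TCF/LEF and 11.2% for GATA. A match describes the letters of the window only.

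Cd2, which encodes an adhesion molecule that binds Cd48 on neighbouring cells, had the highest mean of the 10 genes in every group. Its mean was 6.55 ± 2.19 FPKM in knockout LPS libraries, 8.63 ± 0.765 FPKM in wild-type LPS libraries, 72.9 ± 8.81 FPKM in knockout PBS libraries and 92.6 ± 9.83 FPKM in wild-type PBS libraries (SD, n = 3 each). Under PBS no other gene of the set came near it, the next being Thy1 at 5.37 ± 0.276 FPKM in knockout libraries and 10.4 ± 3.77 FPKM in wild-type libraries (SD, n = 3 each). Under LPS Il7r followed Cd2 in both genotypes, and the ranges of the 2 genes overlapped. Cd3d and Cd5 were the lowest in every group, with overlapping ranges. In wild-type PBS libraries the 7 genes from Thy1 down to Lat could not be put in a firm order, since the range of each overlapped that of the next. Over all 12 libraries the 10 genes had means between 1.37 FPKM for Cd5 and 45.2 FPKM for Cd2, and all passed the minimum mean of 1 FPKM set for the test.

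**Figure D1:**
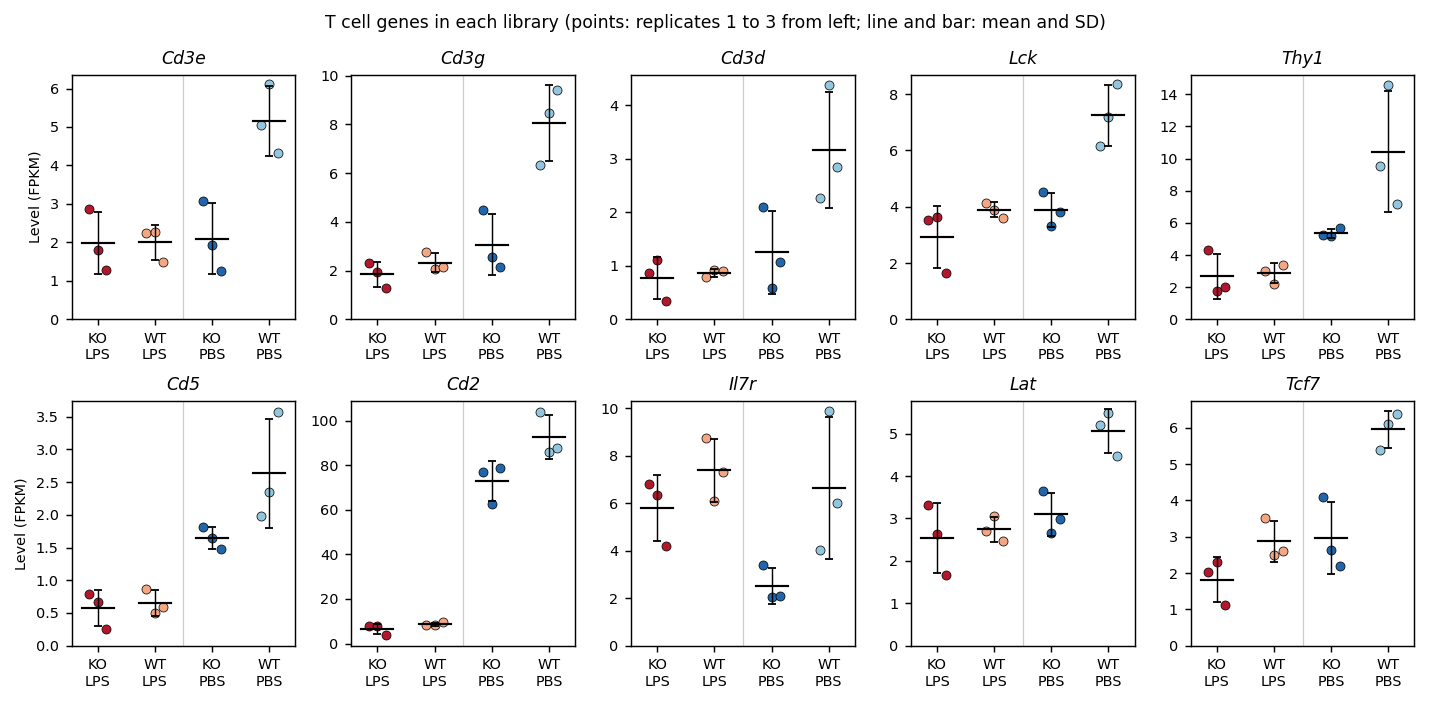
Level of each of the 10 genes in FPKM (vertical axes, 1 scale per gene) in the 3 libraries of each group, with the mean (line) and SD (bar). Knockout (KO) is left of wild type (WT) within LPS and within PBS. For all genes but Il7r the 3 wild-type PBS libraries stand above the other 9 libraries, and Cd2 is at 4.02 to 9.51 FPKM in the LPS libraries against 62.8 to 104 FPKM in the PBS libraries.

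Against PBS, LPS lowered 9 of the 10 genes in wild-type mice, and in all 9 the LPS libraries lay below every PBS library. Falls were also common among the other genes, since 37.4% of the 9841 genes tested fell and 24.8% rose (limma, adjusted p under 0.05), and 38.9% had LPS libraries below all PBS libraries. The median difference of the 10 genes was -1.08 on the log2 scale, against -0.11 over all genes tested. When the libraries were rescaled by median of ratios the median of all genes moved to 0.05, and the split of all calls went to 3327 higher and 2851 lower, against 2443 higher and 3680 lower without rescaling, while 9 of the 10 genes were still called lower. In a mixed sample fewer T cells and less of an RNA per T cell cannot be told apart. Nor can changes in the other cells that carry some of these genes, or in the share of other cells' RNA.

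The CD3 chains fell together. Cd3g was at 2.76, 2.06 and 2.16 FPKM in wild-type LPS libraries and at 6.35, 8.45 and 9.41 FPKM in wild-type PBS libraries, a difference of -1.44 ± 0.21 (SE, adjusted p = 0.000163). Cd3e was at 2.24, 2.27 and 1.49 FPKM under LPS and at 5.05, 6.12 and 4.32 FPKM under PBS, a difference of -1.04 ± 0.24 (adjusted p = 0.00255). The lowest of the chains, Cd3d, was at 0.785, 0.928 and 0.895 FPKM under LPS and at 2.27, 4.38 and 2.85 FPKM under PBS, a difference of -1.13 ± 0.25 (adjusted p = 0.00238). As ratios of mean FPKM the 3 genes were 2.58-fold lower for Cd3e, 3.47-fold lower for Cd3g and 3.64-fold lower for Cd3d in wild-type LPS libraries.

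The proximal signalling genes fell as well, with smaller differences. Lck was at 4.15, 3.90 and 3.61 FPKM in wild-type LPS libraries and at 6.17, 7.20 and 8.36 FPKM in wild-type PBS libraries, a difference of -0.75 ± 0.20 (SE, adjusted p = 0.0062). Lat was at 2.70, 3.05 and 2.47 FPKM under LPS and at 5.20, 5.49 and 4.47 FPKM under PBS, a difference of -0.69 ± 0.16 (adjusted p = 0.00335). In mean FPKM these were 1.86-fold lower for Lck and 1.84-fold lower for Lat. Tcf7, which encodes the transcription factor TCF1 of naive and memory T cells, was at 3.52, 2.50 and 2.60 FPKM under LPS and at 5.39, 6.10 and 6.39 FPKM under PBS, a difference of -0.85 ± 0.20 (adjusted p = 0.00311).

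Among the surface proteins the sizes differed widely. Cd2 was at 8.21, 8.16 and 9.51 FPKM in wild-type LPS libraries and at 104, 86.0 and 87.9 FPKM in wild-type PBS libraries, a difference of -3.28 ± 0.20 (SE, adjusted p = 6.01e-07) and 10.7-fold in mean FPKM. Thy1, a glycolipid-anchored protein of mouse T cells, was at 3.01, 2.18 and 3.41 FPKM under LPS and at 9.54, 14.6 and 7.18 FPKM under PBS, a difference of -1.53 ± 0.26 (adjusted p = 0.000421). Cd5, an inhibitory coreceptor, was at 0.869, 0.503 and 0.584 FPKM under LPS and at 1.98, 2.35 and 3.58 FPKM under PBS, a difference of -1.12 ± 0.18 (adjusted p = 0.000254). The exception was Il7r, the receptor chain for interleukin 7, a survival factor of resting T cells. It was at 8.75, 6.08 and 7.32 FPKM under LPS and at 4.01, 9.90 and 6.01 FPKM under PBS, and its difference of 0.20 (95% interval -0.39 to 0.78) did not pass the test (adjusted p = 0.542). With array quality weights it did pass, at 0.53 (adjusted p = 0.0474).

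In knockout mice LPS lowered 3 of the 10 genes and raised 1, against 33.3% lowered and 19.9% raised among all genes tested (limma, adjusted p under 0.05). The groups did not overlap, with LPS lower, for those 3 genes, as for 41.3% of all genes tested. The median difference was -0.42 over the 10 genes and -0.12 over all genes tested. Cd2 again had the largest fall, at 7.80, 7.82 and 4.02 FPKM in knockout LPS libraries and at 77.2, 62.8 and 78.9 FPKM in knockout PBS libraries, a difference of -3.33 ± 0.20 (SE, adjusted p = 5.97e-07). Cd5 was at 0.790, 0.667 and 0.259 FPKM under LPS and at 1.81, 1.64 and 1.47 FPKM under PBS, a difference of -0.76 ± 0.18 (adjusted p = 0.00389). Thy1 was at 4.30, 1.76 and 2.01 FPKM under LPS and at 5.23, 5.19 and 5.69 FPKM under PBS, a difference of -0.85 ± 0.26 (adjusted p = 0.0173). The Thy1 call was lost without knockout LPS replicate 2 (adjusted p = 0.0742), without knockout LPS replicate 3 (adjusted p = 0.0597) and without knockout PBS replicate 3 (adjusted p = 0.0505).

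Il7r rose with LPS in knockout mice. It was at 6.81, 6.33 and 4.19 FPKM in knockout LPS libraries and at 3.41, 2.04 and 2.09 FPKM in knockout PBS libraries. All its LPS libraries were above all its PBS libraries, as for 24.6% of all genes tested. The difference was 0.95 ± 0.27 (SE, adjusted p = 0.0107), and 2.30-fold in mean FPKM. Without the 2 libraries richest in erythroid RNA, wild-type LPS replicate 2 and knockout LPS replicate 1, it was 0.83 (adjusted p = 0.0536).

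For the CD3 chains and the signalling genes no change with LPS was called in knockout mice. Cd3e was at 2.86, 1.81 and 1.28 FPKM in knockout LPS libraries and at 3.09, 1.95 and 1.26 FPKM in knockout PBS libraries, nearly the same values, with a difference of -0.05 (95% interval -0.56 to 0.47, adjusted p = 0.881) that turned to 0.08 after scaling by median of ratios and to 0.04 after upper quartile scaling. Cd3g was at 2.30, 1.96 and 1.29 FPKM under LPS and at 4.49, 2.54 and 2.15 FPKM under PBS (difference -0.48, adjusted p = 0.0765), and Cd3d at 0.867, 1.10 and 0.353 FPKM under LPS and at 2.11, 0.592 and 1.07 FPKM under PBS (difference -0.32, adjusted p = 0.31). In each of these genes knockout PBS replicate 1 was the highest PBS library and knockout LPS replicate 3 the lowest LPS library. Lck was at 3.52, 3.62 and 1.64 FPKM under LPS and at 4.54, 3.32 and 3.80 FPKM under PBS (difference -0.35, adjusted p = 0.149), Lat at 3.32, 2.62 and 1.66 FPKM under LPS and at 3.64, 2.65 and 2.99 FPKM under PBS (difference -0.23, adjusted p = 0.25), and Tcf7 at 2.03, 2.32 and 1.11 FPKM under LPS and at 4.09, 2.63 and 2.20 FPKM under PBS (difference -0.49, adjusted p = 0.0556). Without knockout PBS replicate 3, both Cd3g (adjusted p = 0.0374) and Tcf7 (adjusted p = 0.0325) passed the test, as Tcf7 did without knockout LPS replicate 2 (adjusted p = 0.0374).

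**Figure D2:**
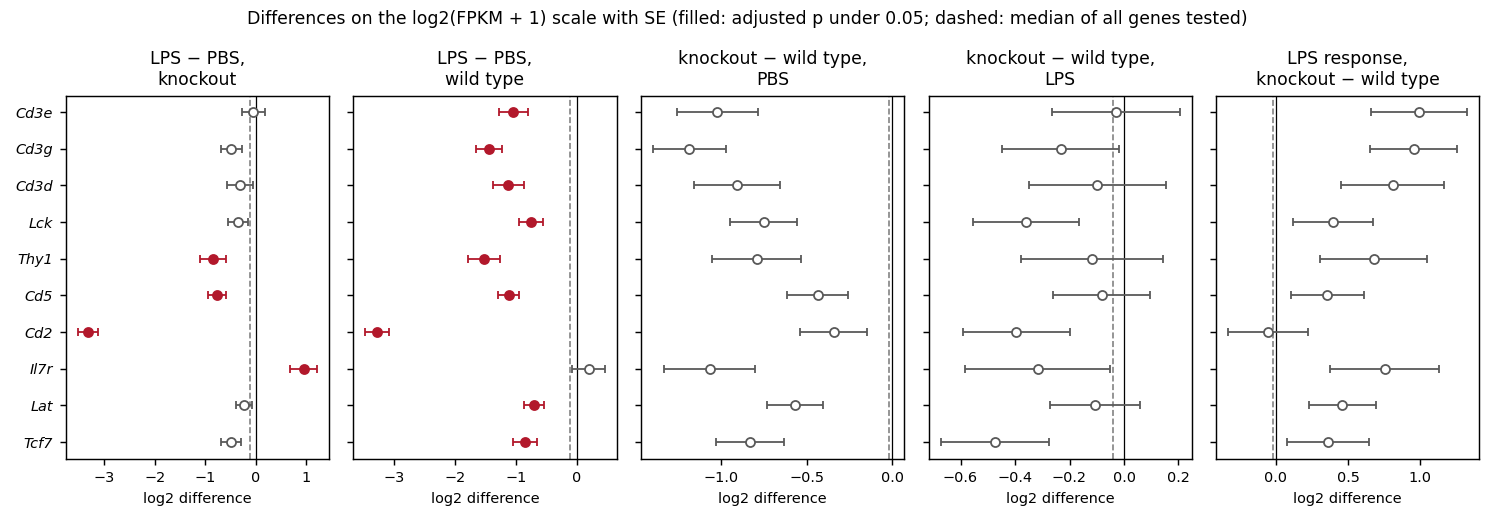
Difference of each gene on the log2(FPKM + 1) scale (horizontal axes, scale differs by panel) with its SE, in the 5 contrasts named above the panels. Filled points passed an adjusted p under 0.05 by limma, 4 for LPS in knockout mice, 9 for LPS in wild-type mice and 0 in the others, and the dashed line is the median of all genes tested.

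The genotypes were compared first under PBS. All 10 genes had lower means in knockout than in wild-type PBS libraries, and for all 10 the highest knockout library was below the lowest wild-type library, against 7.34% of all genes tested. None passed the test after adjustment over all genes (lowest adjusted p = 0.0813 by limma, for Cd3g), while 9 of the 10 were at an unadjusted p under 0.05, as were 897 of the 9841 genes. Over all genes 0.0915% were called lower and 0.0203% higher in knockout libraries, 11 genes in all. The median difference was -0.81 over the 10 genes and -0.02 over all genes tested. This comparison and that of LPS with PBS in wild type share the 3 wild-type PBS libraries, and their values are not independent of each other.

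Cd3g had the largest difference, -1.19 ± 0.21 (SE, 95% interval -1.66 to -0.72, unadjusted p = 0.00015 by limma), with knockout PBS libraries at 4.49, 2.54 and 2.15 FPKM and wild-type PBS libraries at 6.35, 8.45 and 9.41 FPKM. It passed the adjusted threshold without wild-type PBS replicate 1 (adjusted p = 0.0483) and without knockout PBS replicate 1 (adjusted p = 0.0341). Il7r followed at -1.07 ± 0.27, with knockout PBS libraries at 3.41, 2.04 and 2.09 FPKM and wild-type PBS libraries at 4.01, 9.90 and 6.01 FPKM, the closest pair of libraries across genotypes being 3.41 and 4.01 FPKM. For Cd3e the difference was -1.02 ± 0.24 and for Cd3d -0.91 ± 0.25, and the mean levels were 2.46-fold lower for Cd3e and 2.52-fold lower for Cd3d in knockout PBS libraries. Tcf7 differed by -0.83 ± 0.20, Thy1 by -0.79 ± 0.26, Lck by -0.75 ± 0.20 and Lat by -0.57 ± 0.16. The smallest differences were those of Cd5 at -0.44 ± 0.18 and Cd2 at -0.34 ± 0.20. Cd2 had knockout PBS libraries at 62.8 to 78.9 FPKM and wild-type PBS libraries at 86.0 to 104 FPKM.

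Under LPS the genotypes lay closer together. None of the 10 genes was called, and neither was any other gene, with 0% of the 9841 genes lower and 0% higher at an adjusted p under 0.05 by limma, while 744 genes were at an unadjusted p under 0.05. The differences of the 10 genes ran between -0.47 for Tcf7 and -0.03 for Cd3e, with a median of -0.17, against -0.04 over all genes tested. Tcf7 (unadjusted p = 0.0354, adjusted p = 0.655) and Cd2 were the 2 genes whose knockout LPS libraries were all below the wild-type LPS libraries, as were 10.4% of all genes tested. Tcf7 was at 1.11 to 2.32 FPKM in knockout LPS libraries and 2.50 to 3.52 FPKM in wild-type LPS libraries, and Cd2 at 4.02 to 7.82 FPKM in knockout LPS libraries and 8.16 to 9.51 FPKM in wild-type LPS libraries. The 95% intervals of all genes but Tcf7 included 0, and for the 8 genes whose groups overlapped they reached down to between -0.47 for Lat and Cd5 and -0.90 for Il7r. Knockout LPS replicate 3 had the lowest level of its group for 9 of the 10 genes, and without it the differences of Cd3e, Cd3d, Cd5 and Lat turned above 0.

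Whether LPS acted differently in the genotypes was tested as the difference between the 2 LPS responses. It was above 0 for 9 of the 10 genes, that is, the level under LPS was less reduced, or more raised, in knockout than in wild-type mice, but none was called (lowest adjusted p = 0.381 by limma). Of all genes 0% were called lower and 0.0406% higher. The values of the CD3 chains were 0.99 ± 0.33 for Cd3e, 0.95 ± 0.30 for Cd3g and 0.81 ± 0.36 for Cd3d (SE), and these 3 were the genes of the set at an unadjusted p under 0.05, as were 946 of all genes tested. Il7r followed at 0.75 ± 0.38 and Thy1 at 0.68 ± 0.37, and Cd2 was at -0.05 ± 0.28. The median was 0.57 over the 10 genes and -0.02 over all genes. This contrast uses the same PBS libraries as the comparison of genotypes under PBS. Its signs are therefore not independent of the lower levels in knockout PBS libraries. With array quality weights Cd3e passed the test, at 1.46 (adjusted p = 0.0383).

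The proportions of the 10 transcripts to each other were also compared, as ratios of FPKM within a library, which do not depend on the scaling of the library. The ratio of Cd2 to Cd3e was between 2.72 and 4.33 in knockout LPS libraries, between 3.60 and 6.39 in wild-type LPS libraries, between 25.0 and 62.5 in knockout PBS libraries and between 14.1 and 20.6 in wild-type PBS libraries. No LPS library reached a PBS library of either genotype, and under PBS the knockout was above wild type in every library. Il7r moved the other way. Its ratio to Cd3e was between 2.38 and 3.51 in knockout LPS libraries and 2.68 and 4.92 in wild-type LPS libraries, and lower, between 1.05 and 1.66 in knockout PBS libraries and 0.794 and 1.62 in wild-type PBS libraries. The ratio of Cd3g to Cd3e was between 0.802 and 1.09 in knockout LPS libraries, between 0.909 and 1.45 in wild-type LPS libraries, between 1.31 and 1.70 in knockout PBS libraries and between 1.26 and 2.18 in wild-type PBS libraries. The knockout LPS libraries lay below all PBS libraries, while the ranges of the wild-type groups overlapped. No test was run on these ratios.

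**Figure D3:**
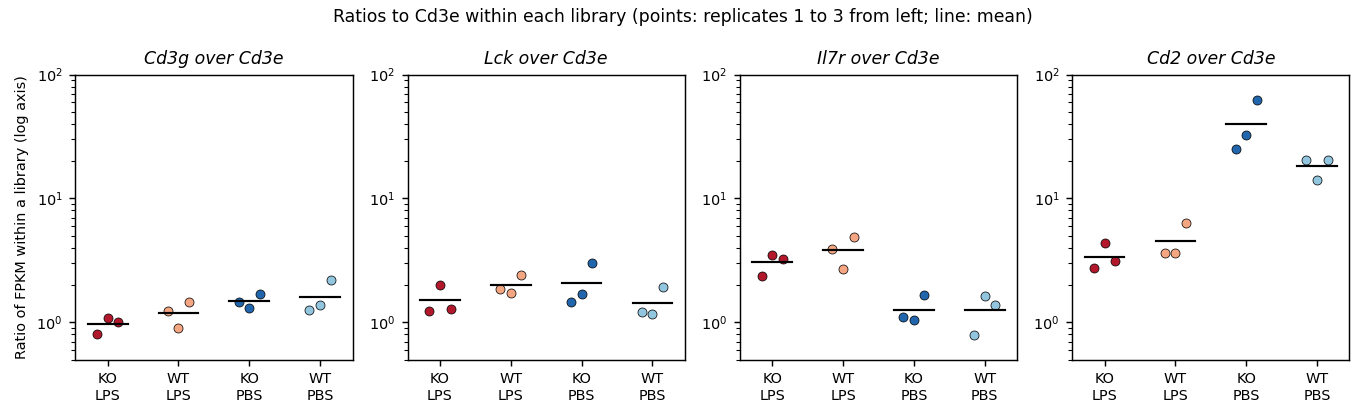
Ratio of the FPKM of Cd3g, Lck, Il7r and Cd2 to that of Cd3e in each library (vertical axis, log scale), by group, with the mean as a line. Cd2 over Cd3e is between 2.72 and 6.39 in the LPS libraries and between 14.1 and 62.5 in the PBS libraries, while Il7r over Cd3e is higher in the LPS libraries.

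Other genes of T cell receptor signalling were taken from a list of 28, of which 21 were tested. With LPS 12 of the 21 fell and none rose in knockout mice (median -0.61), where 33.3% of all genes tested fell and their median was -0.12. In wild-type mice 13 of the 21 fell and none rose (median -0.52), where 37.4% of all genes fell and their median was -0.11. Among those with large changes were Nfatc1, a transcription factor of activated lymphocytes, with -1.71 ± 0.23 in knockout and -1.52 ± 0.23 in wild-type mice, and Rasgrp1, a Ras activator, with -1.24 ± 0.23 in knockout and -1.25 ± 0.23 in wild-type mice (SE). Both are also used by B cells. The most abundant of the list were Lcp2 and Ptprc, general leukocyte genes at a mean of 116 and 103 FPKM over the 12 libraries. Lcp2 differed between LPS and PBS by 0.31 in knockout mice (adjusted p = 0.363 by limma) and 0.39 in wild-type mice (adjusted p = 0.23), neither of them called. Ptprc was lower under LPS without overlap, as were 41.3% of all genes tested in knockout and 38.9% in wild-type mice. It was at 64.6 to 84.0 FPKM under LPS and 107 to 149 FPKM under PBS in knockout libraries. In wild-type libraries it was at 77.3 to 91.4 FPKM under LPS and 103 to 146 FPKM under PBS. Between genotypes none of the 21 was called under PBS (median -0.22) or under LPS (median -0.21). Zap70, the kinase next to Lck, was at 0.618 to 0.721 FPKM in knockout PBS libraries and at 1.16 to 2.10 FPKM in wild-type PBS libraries, a difference of -0.56 that was not called (adjusted p = 0.356), and it was named after its values were seen.

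Coreceptors and costimulatory receptors went both ways. From a list of 18, 12 reached the minimum mean and were tested. Of these LPS lowered 2 and raised 4 in knockout mice, where 33.3% of all genes were lowered and 19.9% raised. In wild-type mice it lowered 6 and raised 4, where the shares were 37.4% lowered and 24.8% raised. Among those raised in both genotypes were Lag3, an inhibitory receptor of activated T and natural killer cells (1.94 ± 0.28 in knockout and 2.44 ± 0.28 in wild-type mice), Tnfrsf9, an activation receptor of T cells (1.44 ± 0.34 in knockout and 2.07 ± 0.34 in wild-type mice), and Tigit, another inhibitory receptor (1.71 ± 0.34 in knockout and 1.02 ± 0.34 in wild-type mice, SE). The lineage coreceptors Cd4 and Cd8b1 were named after their values were seen. Cd4 differed between LPS and PBS by -0.13 ± 0.18 in knockout mice (adjusted p = 0.564) and fell by 0.76 ± 0.18 in wild-type mice (adjusted p = 0.00308). Cd8b1 differed by 0.07 ± 0.23 in knockout mice (adjusted p = 0.799) and fell by 0.74 ± 0.23 in wild-type mice (adjusted p = 0.0135). Under PBS Cd8b1 was at 1.04, 0.921 and 0.644 FPKM in knockout libraries and 2.80, 4.66 and 1.93 FPKM in wild-type libraries, and Cd4 at 1.40, 0.708 and 0.802 FPKM in knockout libraries and 1.86, 2.40 and 2.77 FPKM in wild-type libraries. For both genes all knockout PBS libraries were below the wild-type ones, as for 7.34% of all genes tested. Neither was called (adjusted p = 0.139 for Cd8b1 and 0.188 for Cd4 by limma). Cd8a, of the same list, overlapped there, at 0.546 to 0.964 FPKM in knockout and 0.908 to 2.82 FPKM in wild-type libraries.

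From a list of 18 transcription factors of the T lineage 11 were tested. The others, among them Bcl11b, Gata3 and Lef1 at under 1 FPKM in every library, did not reach the minimum mean. The counts therefore describe the 11 alone. Of these LPS lowered 5 and raised 4 in knockout mice, and lowered 4 and raised 3 in wild-type mice. Of all genes tested 33.3% were lowered and 19.9% raised in knockout mice, and 37.4% were lowered and 24.8% raised in wild-type mice, so the wild-type counts of this list are near the background. Ets1, an ETS factor of lymphocytes, fell by 2.24 ± 0.23 in knockout and by 2.02 ± 0.23 in wild-type mice, while Tbx21, which encodes the T-bet factor of type 1 and cytotoxic lymphocytes, rose by 1.49 ± 0.28 in knockout and by 1.95 ± 0.28 in wild-type mice (SE). Among the 19 tested of 20 genes of lymphocyte homing and survival 6 fell and 7 rose in knockout mice, and 7 fell and 6 rose in wild-type mice. This is near those shares for both wild-type counts and for the falls in knockout mice. S1pr1, the receptor by which lymphocytes leave tissues toward sphingosine 1-phosphate, fell by 3.60 ± 0.25 in knockout and by 3.51 ± 0.25 in wild-type mice. Il2ra, the inducible chain of the interleukin 2 receptor, rose by 3.46 ± 0.28 in knockout and by 2.70 ± 0.28 in wild-type mice. Neither list held a gene called between the genotypes under PBS or LPS.

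Markers of other cells moved with several of these comparisons, and their part in the results was not tested. The 16 B cell markers summed to 262 to 490 FPKM in knockout LPS libraries, 436 to 583 FPKM in wild-type LPS libraries, 942 to 1283 FPKM in knockout PBS libraries and 788 to 1591 FPKM in wild-type PBS libraries. With LPS 11 of them fell in knockout mice (median -1.06) and 10 in wild-type mice (median -0.93), and none rose, against 33.3% of all genes that fell in knockout mice (median -0.12) and 37.4% in wild-type mice (median -0.11). Between the genotypes under PBS none of the 16 was called and the median was -0.14. The 8 tested markers of natural killer and cytotoxic cells had a median of -0.73 in knockout against wild-type PBS libraries. The list of 13 summed to 306 to 401 FPKM in knockout and 123 to 393 FPKM in wild-type PBS libraries, most of it Ccl5. Of the 8 tested, 1 was called, Klrd1, an inhibitory receptor chain (-0.93 ± 0.15, adjusted p = 0.0479 by limma). Klrd1 was at 0.973 to 1.13 FPKM in knockout PBS libraries and 2.22 to 3.93 FPKM in wild-type PBS libraries. The 10 macrophage markers summed to 12923 to 14792 FPKM in knockout PBS libraries and 9591 to 21474 FPKM in wild-type PBS libraries. Most of each sum was Lyz2, at 10822 to 12102.5 FPKM in knockout and 7564 to 19205 FPKM in wild-type PBS libraries. The highest sum and the highest Lyz2 level were those of wild-type PBS replicate 3. None of the 10 was called between the genotypes under PBS, and 7 fell with LPS in each genotype. Neutrophil markers summed to 719 to 2685 FPKM in knockout LPS libraries and 155 to 283 FPKM in wild-type LPS libraries, and to 1200 to 3035 FPKM in knockout PBS libraries and 1956 to 3262 FPKM in wild-type PBS libraries. Most of each sum was S100a8 and S100a9. None of the 8 neutrophil markers tested was called between the genotypes under LPS or under PBS. Mast cell markers summed to between 478 and 1062 FPKM in all 12 libraries and innate lymphoid cell markers to between 42.3 and 706 FPKM. Most of the latter sum was Arg1, alone at 31.9 to 695 FPKM, so it is chiefly the level of 1 gene. Each B cell, macrophage and mast cell marker was above 0 in every library, while Camp and Ly6g of the neutrophil list, Areg and Il13 of the innate lymphoid list and Klra8 of the natural killer list were at 0 in at least 1 library. Erythroid markers summed to at most 43.7 FPKM in 9 libraries, at 1886 FPKM in knockout LPS replicate 1, at 2226 FPKM in wild-type LPS replicate 2 and at 330 FPKM in wild-type PBS replicate 2.

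**Figure D4:**
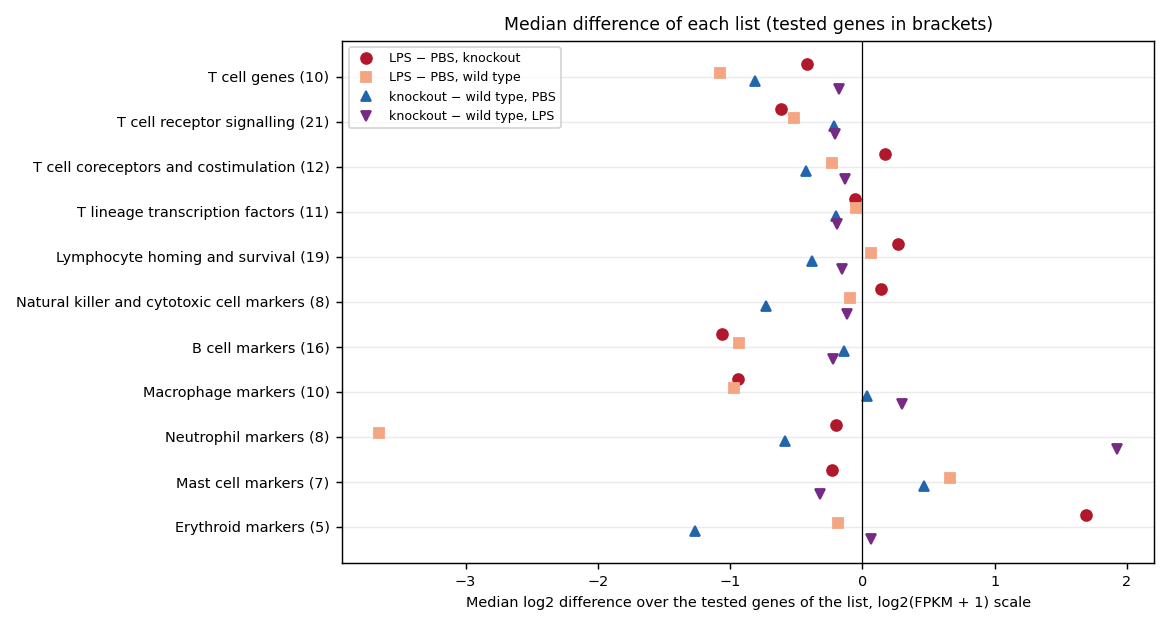
Median difference on the log2(FPKM + 1) scale (horizontal axis) over the tested genes of each list (number in brackets), in the 4 contrasts of a pair of groups. For LPS against PBS the 10 T cell genes stand at -0.42 in knockout and -1.08 in wild-type mice and the B cell markers at -1.06 in knockout and -0.93 in wild-type mice. For knockout against wild type under PBS the T cell genes stand at -0.81 and the B cell markers at -0.14.

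Within groups the 10 genes tended to deviate together from library to library. In knockout LPS replicate 3 all 10 were below their group mean, by 0.38 on the log2 scale on average, as were the 16 B cell markers by 0.38. In knockout LPS replicate 1 none was below the group mean, and in knockout PBS replicate 1 only 1 was, while the mean deviations were 0.27 in each. In wild-type PBS replicate 2 the 10 genes were above their group mean by 0.17, the natural killer markers above by 0.45 and the B cell markers below by 0.58. Correlations of these deviations over the 12 libraries, which share their depth and cell mixture, reached 0.91 between Cd3g and Tcf7, 0.82 between Lck and Tcf7 and 0.82 between Cd3d and Il7r, and were lowest between Thy1 and Cd5 (-0.01) and between Thy1 and Tcf7 (0.08). These are descriptions over 12 libraries in 4 groups.

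Rankings by likeness of pattern left out predicted genes and T cell receptor, immunoglobulin and mitochondrial genes. Symbols that name only a clone or locus, Xist and the Mx genes were left out too. The other tested genes whose levels followed the mean of the 10 genes most closely over the 12 libraries were Cd28, the costimulatory receptor of T cells (r = 0.966), Nudt4 (0.964), Cxcr3, a chemokine receptor of type 1 lymphocytes (0.964), Fam129a (0.960), Klrd1 (0.949), Spata2, Hvcn1 and Xpc (0.945 to 0.946). By the deviations within groups alone they were Panx1 (0.952), Ifi202b (0.950), Ms4a4b (0.947), Cxcr3 (0.926) and Cd28 (0.922), followed by Bid, Pym1 and Il17ra. Cxcr3 and Cd28 were in both sets. The course of Cd2 taken alone, a choice made after its values were seen, was matched most closely by Irf5, Lbh, Acss1, L3mbtl3 and S1pr1 (r between 0.994 and 0.996), and that of Il7r, chosen likewise, by Pdcd4 (0.888), Klrk1, Gde1, Zap70 and Apaf1. S1pr1 was at 4.46 ± 1.70 FPKM in knockout LPS libraries, 5.22 ± 0.841 FPKM in wild-type LPS libraries, 62.9 ± 7.69 FPKM in knockout PBS libraries and 71.1 ± 19.0 FPKM in wild-type PBS libraries (SD, n = 3 each). These correlations are given as likeness of pattern over 12 libraries that share their groups.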

How the data were processed

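Libraries of total RNA from peritoneal lavage cells were made with standard Solexa methods, per the labels' protocols. TopHat, Cufflinks, HTSeq, DESeq and the build GRCm38 stand in the submitters' processing notes without version or role. The authors deposited 1 value per gene and library with no unit, taken here as FPKM because the values are not whole and Cufflinks is named. Of 21878 rows 27 had symbols turned into dates and were left out. T cell receptor constant regions were not analysed here.

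The 10 genes, the lists and the rule for naming genes (the 10 members, up to 3 called genes with the largest change and 2 with the highest level from a list, and the closest patterns) were chosen with earlier results of these data known. The 9841 genes whose mean over the libraries reached 1 FPKM were fitted as log2(FPKM + 1) with limma 3.58.1 (trend, robust) in R 4.3.3, with 4 group means over 12 libraries, 8 residual degrees of freedom, two-sided tests and Benjamini-Hochberg adjustment within a contrast over all genes tested. The test was checked on simulated data. The labels do not say that libraries came from separate mice, so p-values reflect only the spread between these libraries, which may be technical. Alternatives covered pseudocounts, filters, scalings, the groups fitted, array quality weights, a replicate block and each library left out. Leaving out the 2 libraries richest in erythroid RNA was added after seeing the data.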

Additional observations from a re-analysis of the deposited data

How the results depend on the processing

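With 1 library left out in turn, 9 of the 10 genes stayed called for LPS in wild type, between 3 and 5 for LPS in knockout, between 0 and 1 for knockout against wild type under PBS (Cd3g, without knockout PBS replicate 1 or wild-type PBS replicate 1) and 0 for the other 2 contrasts. A minimum mean of 5 FPKM left 3 of the genes to test, of which 2 were called for LPS in wild type. Array quality weights gave 1 call (Cd3e) for the difference between LPS responses. The same weights turned the difference of knockout from wild type under LPS to 0.39 for Cd3e, 0.13 for Thy1, 0.081 for Cd5 and 0.16 for Lat, that between LPS responses to 0.13 for Cd2, and that of LPS in knockout to 0.26 for Cd3e, which median of ratios scaling turned to 0.082 and upper quartile scaling to 0.041. The causes were not tested. With 1 library left out, the differences that changed sign lay between -0.073 and 0.49 (Il7r, LPS in wild type), -0.25 and 0.17 (Cd3e, LPS in knockout), -0.19 and 0.22 (Cd2, between LPS responses) and, for knockout against wild type under LPS, -0.23 and 0.15 (Cd3e), -0.23 and 0.085 (Cd3d), -0.41 and 0.061 (Thy1), -0.18 and 0.071 (Cd5) and -0.27 and 0.083 (Lat).

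Same-numbered libraries deviated together with correlations between -0.254 and 0.193, so the numbers were not taken as pairs, and a replicate block gave 5 calls in place of 4 for LPS in knockout, adding Tcf7 (adjusted p = 0.0457 by limma), and no other change among the 10 genes. Over all genes the 11 calls for knockout against wild type under PBS became 3 with the block, 50 with array quality weights, 4 at a minimum mean of 5 FPKM, 7 with median of ratios scaling, 0 in a fit of those 2 groups alone or when both libraries richest in erythroid RNA were left out, and 0 to 30 without 1 library. The 0 calls under LPS became 1070 with the weights, 2 without a filter, 3 in a fit of those 2 groups alone and up to 29 without 1 library. The 4 calls between LPS responses became 225 with the weights, 2 with a pseudocount of 0.5, 1 without a filter or at a minimum mean of 5 FPKM, 7 and 8 with median of ratios and upper quartile scaling, 0 with the block or without the 2 erythroid-rich libraries, and 0 to 48 without 1 library. FPKM carry no read counts, so the precision of the lowest genes, Cd3d and Cd5, is known from the spread between 3 libraries alone.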
